A study of Homo sapiens with 6 samples.

Results

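The genes described here are 10 transcripts that ERK signalling is known to switch on and whose products act back on the pathway or carry its output: the phosphatase genes DUSP4, DUSP5 and DUSP6, the Sprouty genes SPRY1, SPRY2 and SPRY4, the Sprouty-related genes SPRED1 and SPRED2, and the transcription factor genes ETV4 and ETV5. They were chosen by name, with earlier results of these data known, and all 10 were found among the 61806 genes of the deposited table. RNA was measured in HEK293 cells, a human embryonic kidney line that carries adenovirus DNA. Of the 6 poly(A) libraries, 3 came from cells of the genotype rs16851030-mutant, into which the DNA variant of that name had been put by CRISPR with a repair template, and 3 came from cells of the genotype WT, called wild type here. The question was which transcripts differ between them. The treatment field of the labels carries the same editing text for all 6 libraries, so whether the wild-type cells went through the editing procedure is not given, nor whether the mutant cells are 1 clone. The labels call the libraries of a group biological replicates without naming separate cultures, and the p-values measure the spread between these libraries.

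ERK is the last kinase of the relay that runs from growth factor receptors through RAS, RAF and MEK. Once active it phosphorylates factors in the nucleus, and within minutes to hours a set of transcripts appears whose products dampen the relay at several levels. DUSP proteins remove the phosphates from MAP kinases, Sprouty proteins act between the receptor and RAF, SPRED proteins bring the RAS inactivator neurofibromin to the membrane, and the ETS factors ETV4 and ETV5 carry the transcriptional output, often downstream of fibroblast growth factor receptors. Because their transcripts follow ERK activity, several of these genes are widely used as a readout of the pathway.

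Counts assigned to genes totalled 16013460 to 20349609 per library. Across the tested genes, Pearson's r of log2 CPM (counts scaled to the library total) was 0.9956 to 0.9971 for pairs within a genotype and 0.9751 to 0.9812 for pairs across genotypes, over genes that are not independent replicates. Of 8 genes typical of HEK293 cells, 6 reached a mean of 1 FPKM (fragments per kilobase of exon, scaled to the library total). KRT8 and the kidney factor gene PAX2 stayed below this mean over all libraries. KRT8 stood at 1.12 FPKM in the mutant and 0.503 in the wild type. KRT8, PAX2 and LHX1 had higher means in the mutant, and VIM, KRT18, CDH2, NEFM and INA lower ones. The 8 summed to 120.49 to 124.95 FPKM in the mutant and 183.53 to 212.35 in the wild-type libraries, most of it from the intermediate filament gene VIM (86.13 to 88.28 and 143.25 to 165.66). Of 12 markers of blood, endothelium, fibroblasts, squamous epithelium and liver, 0 reached 1 FPKM, HBB and CD3E had no count in any library, and the list summed to 0.48 to 0.54 FPKM in the mutant and 0.56 to 0.68 in the wild-type libraries. In bulk RNA, fewer expressing cells and less RNA per cell cannot be told apart.

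The feedback genes were present at low to moderate levels or close to absence, and 1 of them passed the test between the genotypes. Genes with a mean of at least 1 FPKM over the 6 libraries were tested, which held for 5 of the 10 members: SPRY1, SPRY2, SPRED1, SPRED2 and DUSP5. Of these 5, 1 was lower in the mutant (SPRY1), 0 were higher and 4 did not pass edgeR's quasi-likelihood test (adjusted p threshold 0.05). At an unadjusted p below 0.05 the counts were also 1 lower and 0 higher, and DESeq2 and limma each gave 1 lower and 0 higher. Over all 12550 tested genes, 58.0% passed, with 29.4% of the tested genes higher and 28.7% lower. The median absolute log2 fold change was 0.15 for the 5 members and 0.25 for all tested genes. The other 5 members (DUSP4, DUSP6, SPRY4, ETV4 and ETV5) stayed below the minimum and were read from the same model fitted to every gene with a count. In that fit 0 of these 5 passed, 1 (DUSP4) had an unadjusted p below 0.05, and DESeq2 and limma each gave 0 by both measures, while 9.64% of the 20302 genes below the minimum passed. Many of those genes had few counts, so that share is not a like background for a member with more counts.

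**Figure D1:**
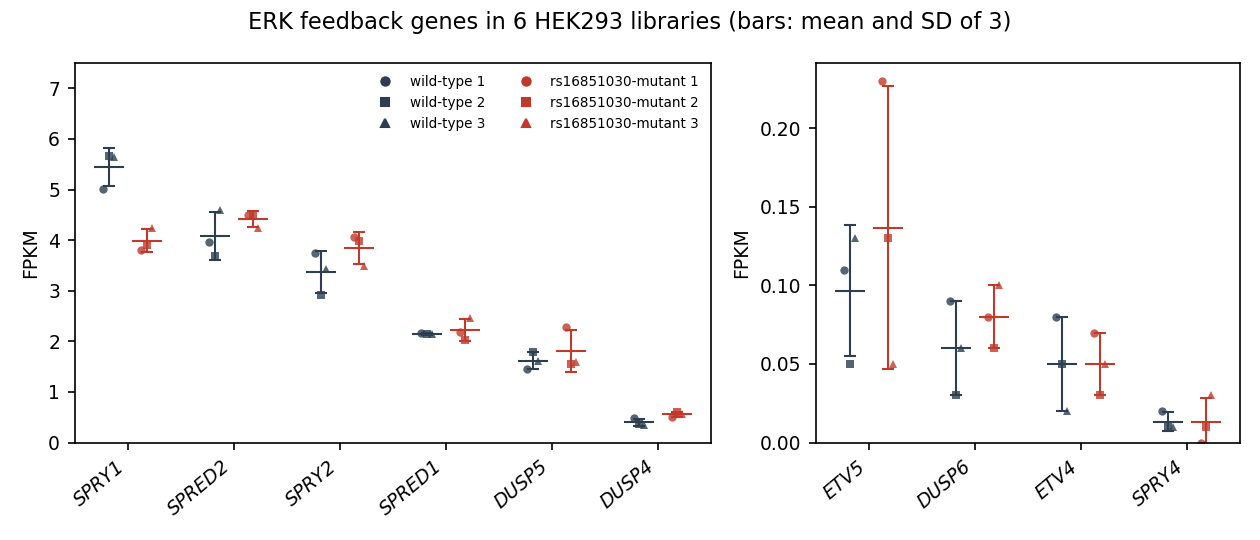
FPKM of the 10 members in each library (points, with the shape giving the replicate). The wide bar gives the mean and the error bar the SD of 3 libraries per group. The panels have different scales, and their axes start at 0, where the SD bar of SPRY4 in the mutant is cut. SPRY1 is the member whose mutant values (3.81 to 4.24 FPKM) lie wholly below its wild-type values (5.01 to 5.67 FPKM), and the right panel ends below 0.25 FPKM.

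In FPKM, which is per length and so allows genes to be set side by side, the order was nearly the same in both genotypes. In the wild type SPRY1 stood first at 5.44 ± 0.373 FPKM (SD, n = 3), clear of SPRED2 at 4.08 ± 0.467, which overlapped SPRY2 at 3.36 ± 0.418. SPRED1 at 2.15 ± 0.0173, DUSP5 at 1.62 ± 0.165 and DUSP4 at 0.397 ± 0.0737 followed, each clear of the next. ETV5, DUSP6, ETV4 and SPRY4 came last, between 0.0967 and 0.0133 FPKM, and none of these 4 was clear of its neighbour. In the mutant SPRED2 came first at 4.42 ± 0.153 FPKM (SD, n = 3), and its range overlapped that of SPRY1 at 3.98 ± 0.227, which overlapped that of SPRY2 at 3.84 ± 0.318. SPRED1 and DUSP5 also overlapped there, at 2.22 ± 0.222 and 1.81 ± 0.414 FPKM.

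Sprouty proteins are induced inhibitors of receptor tyrosine kinase signalling, and SPRY1 is the family member best known from kidney development, where it restrains RET. SPRY1 (ENSG00000164056, GRCh38 chromosome 4, 123396795 to 123403760, plus strand) measured 3.81, 3.90 and 4.24 FPKM in mutant replicates 1 to 3, from 307, 260 and 269 counts. Its wild-type values were 5.01, 5.67 and 5.64 FPKM, from 356, 379 and 397 counts. All 3 mutant libraries lay below all 3 wild-type libraries, as the libraries of the groups did, in either direction, for 62.9% of tested genes. SPRY1 fell by 0.48 on the log2 scale (SE 0.09, adjusted p = 0.000209), a level of 0.714 of the wild type with a 95% interval of 0.624 to 0.817. The call held in the 17 other settings that tested SPRY1, with values between -0.55 and -0.37 and adjusted p between 1.15e-06 and 0.00235. The other 463 tested genes of chromosome 4 had a median log2 fold change of 0.06, and the 20 tested neighbours of SPRY1 a median of 0.02.

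SPRY2 (ENSG00000136158, chromosome 13, 80335976 to 80341126, minus strand), the family member most often measured as an ERK output, stood at 4.07, 3.98 and 3.48 FPKM in the mutant and 3.75, 2.92 and 3.42 in the wild type. The groups overlapped, and the difference did not pass (log2 fold change 0.16, SE 0.12, adjusted p = 0.253, 95% interval of the fold 0.941 to 1.33). The ratio of SPRY1 to SPRY2 counts within a library, which no scaling between libraries can move, was 1.15, 1.21 and 1.5 in the mutant and 1.65, 2.4 and 2.04 in the wild type. The ratios did not overlap between genotypes, and how often gene pairs separate in this way was not counted. This pair was set against each other after its values were seen, so the ratio is a description.

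SPRY4 (ENSG00000187678, chromosome 5, 142310427 to 142326455, minus strand) was close to absent in the assigned counts. It had 0, 1 and 3 counts in the mutant and 2, 1 and 1 in the wild-type libraries, 4 counts in each genotype. These sums correspond to 0.0752 CPM in the mutant (exact Poisson 95% interval 0.0205 to 0.193, which covers counting error only) and 0.0761 in the wild type (0.0207 to 0.195). No library exceeded 3 counts, so its fitted value is not read as a fold. SPRY3, which was not a member, had 0.127 ± 0.0351 and 0.0933 ± 0.0208 FPKM (SD, n = 3) in mutant and wild type. SPRY1 made up 61.1% ± 4.54 (SD, n = 3) of the summed Sprouty FPKM of wild-type libraries and 50% ± 3.14 of mutant ones, and SPRY2 37.7% ± 4.27 and 48.2% ± 3.74. The 4 genes summed to 8.91 ± 0.251 and 7.97 ± 0.0551 FPKM.

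Of the members, 6 had promoter entries in the RefSeq table (GRCh38.p14), and 2 of these windows are shown because SPRY1 changed and SPRY2, its partner at a like level, did not pass. Each runs 5′ to 3′ over the 250 bases before an annotated start, chr4:123396545-123396794 on the plus strand for SPRY1 and chr13:80341127-80341376 on the minus strand for SPRY2. Capitals mark the core that ETS factors recognise, GGAA on the strand shown or TTCC for the opposite strand.

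SPRY1: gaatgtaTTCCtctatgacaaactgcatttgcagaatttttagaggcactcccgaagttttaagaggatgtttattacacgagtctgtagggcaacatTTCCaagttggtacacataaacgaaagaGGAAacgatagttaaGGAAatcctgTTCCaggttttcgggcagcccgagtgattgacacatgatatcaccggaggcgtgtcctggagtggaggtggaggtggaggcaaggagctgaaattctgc

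SPRY2: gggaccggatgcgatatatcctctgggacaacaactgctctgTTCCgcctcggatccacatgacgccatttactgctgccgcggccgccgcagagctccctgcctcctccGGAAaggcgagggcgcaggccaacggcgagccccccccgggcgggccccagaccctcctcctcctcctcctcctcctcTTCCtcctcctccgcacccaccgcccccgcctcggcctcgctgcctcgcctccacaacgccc

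The SPRY1 window held 5 such cores and the SPRY2 window 3. The core was chosen after the longer motifs had been searched, and it is common: 92.7% of all 35116 promoter windows held at least 1, with a median of 3. The windows shown differed in base composition, with 45.6% G and C in SPRY1 and 70.4% in SPRY2, against a median of 58.0%. The contrast depends on the windows shown. The other SPRY1 window had 68.0% G and C and 4 cores. The SPRY2 windows not shown had 62.4% and 41.2%, with 4 cores each. Longer motifs were searched on both strands in the 10 windows of the 6 members. The ETS motifs ACCGGAAG and CCGGAAGT, which overlap each other and occur in 1.78% and 3.42% of all windows, were in 0 of the 10. The capicua octamers TGAATGAA (1.40%) and TGAATGGA (0.832%), the AP-1 motif TGAGTCA (4.20%), the CRE motif TGACGTCA (1.65%) and the CArG box of serum response factor (1.16%) were also in 0 of the 10. No match says only that these letters are not in these windows. SPRY1 and SPRY2 both have further annotated starts, and counts per gene do not show which start was used. The bases that follow the start shown were found in 2 of 8 GENCODE transcripts of SPRY1 and in 0 of 2 of SPRY2.

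SPRED proteins bind neurofibromin, the product of NF1, and so favour the inactive state of RAS. SPRED2 (ENSG00000198369, chromosome 2, 65310851 to 65432637, minus strand) measured 4.50, 4.51 and 4.24 FPKM in the mutant and 3.96, 3.69 and 4.60 in the wild type. SPRED1 (ENSG00000166068, chromosome 15, 38252836 to 38357249, plus strand) measured 2.19, 2.02 and 2.46 FPKM in the mutant and 2.17, 2.14 and 2.14 in the wild type. For both genes the groups overlapped and the difference did not pass. The log2 fold change was 0.08 (SE 0.09, adjusted p = 0.443) for SPRED2, with a 95% interval of the fold from 0.931 to 1.20. It was 0.01 (SE 0.10, adjusted p = 0.916) for SPRED1, with an interval from 0.878 to 1.16. SPRED3, the remaining family gene, had 0.423 ± 0.0833 and 0.380 ± 0.0624 FPKM (SD, n = 3) in mutant and wild type. The make-up of the family was alike in both genotypes: SPRED2 held 62.5% ± 2.15 (SD, n = 3) of its FPKM in the mutant and 61.6% ± 2.43 in the wild type.

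**Figure D2:**
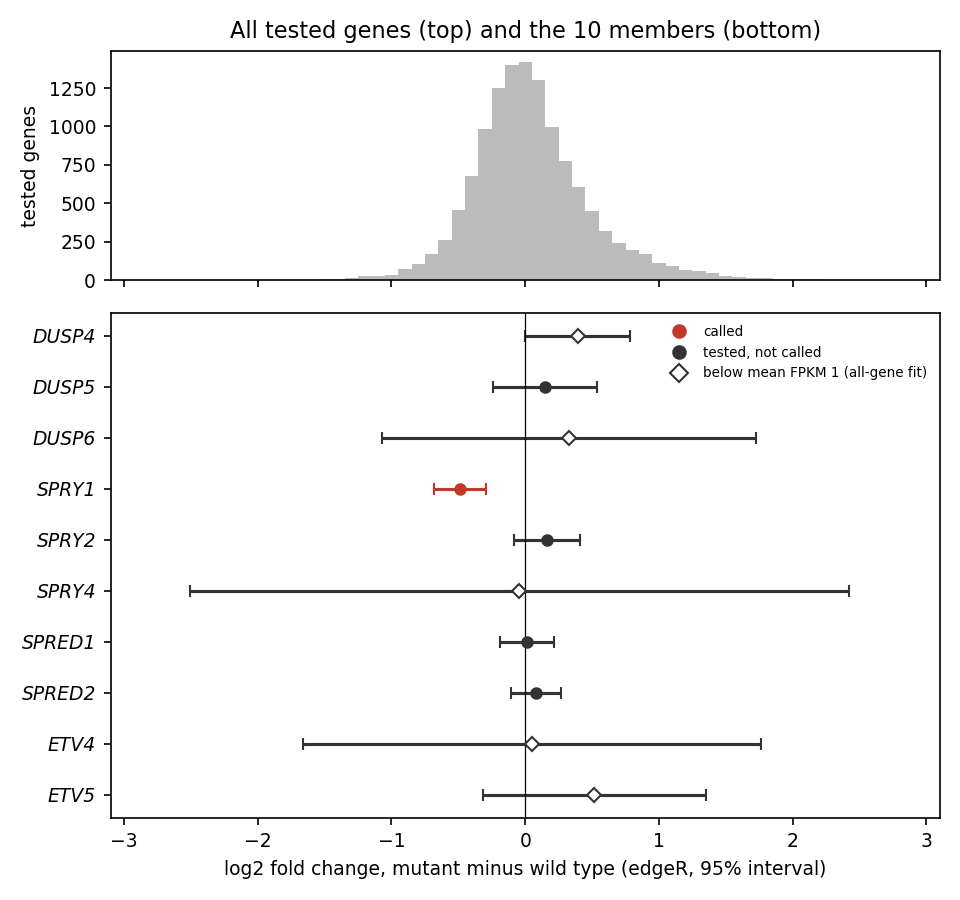
Top, the number of tested genes at each log2 fold change (mutant minus wild type, in steps of 0.1); bottom, the log2 fold change of each member with its 95% interval from edgeR. SPRY1 at -0.48 is the called member; open diamonds are the 5 members below a mean of 1 FPKM, read from the fit over all genes, and SPRY4, ETV4 and DUSP6 have the widest intervals. The SPRY4 point rests on 4 counts per genotype and is not read as a fold.

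The DUSP members are dual-specificity phosphatases that act on MAP kinases: DUSP5 and DUSP4 are nuclear, and DUSP6 is the cytoplasmic enzyme with a strong preference for ERK. DUSP5 (ENSG00000138166, chromosome 10, 110497907 to 110511533, plus strand) had 2.29, 1.55 and 1.60 FPKM in the mutant and 1.45, 1.78 and 1.62 in the wild type. Mutant replicate 1 stood above the other 5 libraries, and the other mutant values lay within the wild-type range. The difference did not pass (log2 fold change 0.15, SE 0.18, adjusted p = 0.507), and without mutant replicate 1 it was -0.07 (adjusted p = 0.786). The other 491 tested genes of chromosome 10 had a median of -0.36, with 65.2% of them lower, and the 20 neighbours of DUSP5 a median of -0.28. The part of this chromosome-wide shift in the DUSP5 value was not tested.

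DUSP4 (ENSG00000120875, chromosome 8, 29333064 to 29350684, minus strand) measured 0.51, 0.60 and 0.56 FPKM in the mutant and 0.48, 0.37 and 0.34 in the wild type, from 44 to 75 counts per library. All mutant values lay above all wild-type values by a small margin. Such separation, in either direction, held for 62.9% of tested genes and was not counted for genes below the minimum. In the fit over all genes its log2 fold change was 0.39 (SE 0.20), with an unadjusted p of 0.0487 and an adjusted p of 0.147, so it did not pass. It passed in 1 of the 17 other settings, the one without wild-type replicate 1 (0.55, adjusted p = 0.042).

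DUSP6 (ENSG00000139318, chromosome 12, 89347235 to 89352501, minus strand), the transcript most closely tied to ERK activity in many cell types, had 6, 4 and 6 counts in the mutant and 6, 2 and 4 in the wild type. These are 0.08, 0.06 and 0.10 FPKM and 0.09, 0.03 and 0.06 FPKM. The sums of 16 and 12 counts give 0.301 CPM (exact Poisson 95% interval 0.172 to 0.488) and 0.228 (0.118 to 0.399). The groups overlapped, and at this depth the 95% interval of the fold ran from 0.476 to 3.3, so a fold within it is not excluded.

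The cytoplasmic phosphatases nearest to DUSP6 were far more abundant. DUSP9 had 11.5 ± 0.0473 FPKM in the mutant and 13.7 ± 1.76 in the wild type, and DUSP7 6.55 ± 0.134 and 7.43 ± 0.775 (SD, n = 3). DUSP6 made up 0.442% ± 0.113 of the FPKM of the 3 genes in the mutant and 0.279% ± 0.129 in the wild type. DUSP9 fell by 0.29 on the log2 scale (SE 0.08, adjusted p = 0.00534) and DUSP7 by 0.21 (SE 0.08, adjusted p = 0.0218). DUSP7 overlapped between the groups, and its call was lost in 9 of 18 other settings, 4 of them with 1 library left out. Among the nuclear phosphatases DUSP1, an immediate early gene that acts on several MAP kinases, dominated with 22.73, 19.33 and 20.23 FPKM in the mutant and 11.46, 11.28 and 12.68 in the wild type. It rose by 0.78 (SE 0.08, adjusted p = 1.54e-07), with no overlap. The ratio of DUSP5 to DUSP1 counts within a library was 0.127, 0.101 and 0.0997 in the mutant and 0.159, 0.198 and 0.161 in the wild type.

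**Figure D3:**
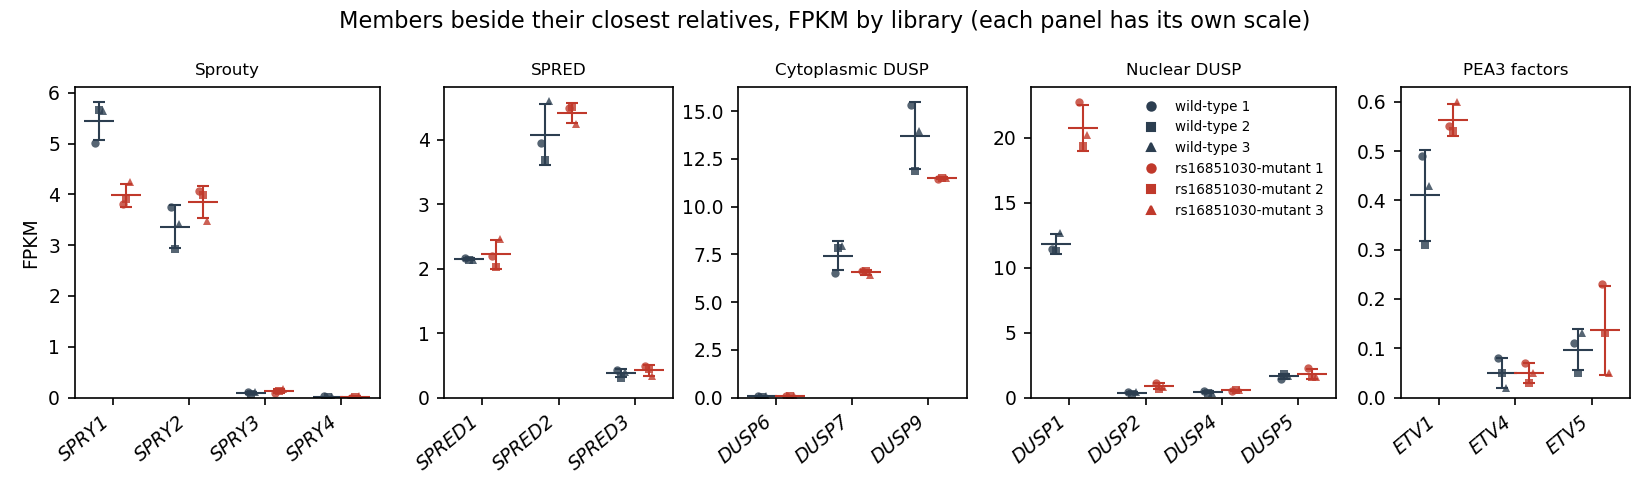
FPKM by library for the members beside their closest relatives, with the mean and SD of 3 libraries per group; each panel has its own scale. DUSP9, DUSP7 and DUSP1 stand at 6.4 to 22.73 FPKM beside DUSP6 at 0.03 to 0.10, and no PEA3 factor exceeds 0.60 FPKM.

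ETV4 and ETV5 encode ETS factors of the PEA3 group, which ERK signalling induces and activates. ETV4 (ENSG00000175832, chromosome 17, 43527844 to 43579620, minus strand) had 5, 2 and 3 counts in the mutant and 5, 3 and 1 in the wild type, or 0.05 ± 0.02 and 0.05 ± 0.03 FPKM (SD, n = 3). The groups overlapped, and the interval of the fold was 0.317 to 3.39. Its span overlaps DHX8 on the opposite strand, which had 2538 to 3274 counts per library. Whether strand was used is unknown here, so reads of the overlap cannot be assigned with certainty.

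ETV5 (ENSG00000244405, chromosome 3, 186046314 to 186110318, minus strand) had 27, 13 and 5 counts in the mutant and 11, 5 and 13 in the wild type, or 0.23, 0.13 and 0.05 FPKM against 0.11, 0.05 and 0.13. The spread within the mutant was wider than the difference between the groups (log2 fold change 0.52, SE 0.43, adjusted p = 0.446, fold interval 0.803 to 2.55). Without mutant replicate 1 the value was -0.08. The gene DGKG, whose annotated span overlaps it on the same strand, had 15, 12 and 3 counts in the mutant and 0, 2 and 1 in the wild type, and its part in the ETV5 counts was not tested. ETV1, the remaining PEA3 gene, was the most abundant of the 3, at 0.55, 0.54 and 0.60 FPKM in the mutant and 0.49, 0.31 and 0.43 in the wild type. It did not overlap between groups but did not pass in the fit over all genes (log2 fold change 0.39, SE 0.17, adjusted p = 0.0908). How often genes below the minimum separate in this way was not counted. Annotated genes that overlap DUSP6 and SPRY4 on the opposite strand, and SPRED2 on the same strand, had no count. Whether reads of these overlaps went unassigned is unknown here, because the strand setting is. The low counts of DUSP6 and SPRY4 carry this limit. SPRY1, SPRY2, SPRED1, DUSP4 and DUSP5 overlapped no other gene. DUSP5P1, a pseudogene of DUSP5 on chromosome 1, had 3 to 9 counts per library.

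Other transcripts that ERK signalling is known to induce changed in both directions, and EGR1 and FOS were far higher in the mutant. Of 16 tested ERK-responsive genes outside the members, 9 were higher, 4 lower and 3 did not pass. The shares were 81.2% passed and 56.2% higher, against 58.0% and 29.4% of all tested genes. This list and those below were chosen with earlier results of these data known, so their shares are descriptions. The list's median log2 fold change was 0.42, against -0.001 for all tested genes. FOS reached the minimum of 1 FPKM through its mutant values and ARC through its wild-type values. EGR1, an immediate early factor, rose by 4.37 on the log2 scale (SE 0.29, adjusted p = 1.07e-09) and FOS, another, by 4.08 (SE 0.33, adjusted p = 1.25e-08). EGR1 measured 36.98, 14.88 and 19.91 FPKM in mutant replicates 1 to 3 and 1.08, 1.25 and 1.08 in the wild type. FOS measured 8.13, 3.3 and 4.57 against 0.24, 0.43 and 0.27. Relative to the wild-type mean, the 3 mutant libraries stood at 32.5, 13.1 and 17.5 for EGR1 and at 25.9, 10.5 and 14.6 for FOS. The same libraries stood at 1.42, 0.959 and 0.990 for DUSP5.

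Mutant replicate 1 was the highest of the 6 libraries for EGR1, FOS, DUSP1, DUSP5, ETV5 and SPRY2, but not for the other members. Its part in the member values was not tested. MYC, a growth factor-responsive regulator, rose to 73.0 ± 2.72 FPKM in the mutant from 35.3 ± 2.14 in the wild type (SD, n = 3, a log2 difference of 1.02 with SE 0.05). The zinc finger gene KLF10 rose by 0.73, the cyclin D1 gene CCND1 by 0.60 and the chromatin protein gene HMGA1 by 0.43. The 4 lower genes were ARC, EPHA4, IER3 and IER5, of which the first 3 are named after their values were seen. ARC, an activity-regulated early gene, fell by 1.43 (SE 0.17, adjusted p = 1.11e-06) and the ephrin receptor gene EPHA4 by 0.88 (SE 0.11, adjusted p = 1.52e-06), both with no overlap between the groups. IER3 fell by 0.43 (adjusted p = 0.0287) and IER5 by 0.21, but IER3 did not pass in 5 of 17 other settings and IER5 in 10 of 18.

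**Figure D4:**
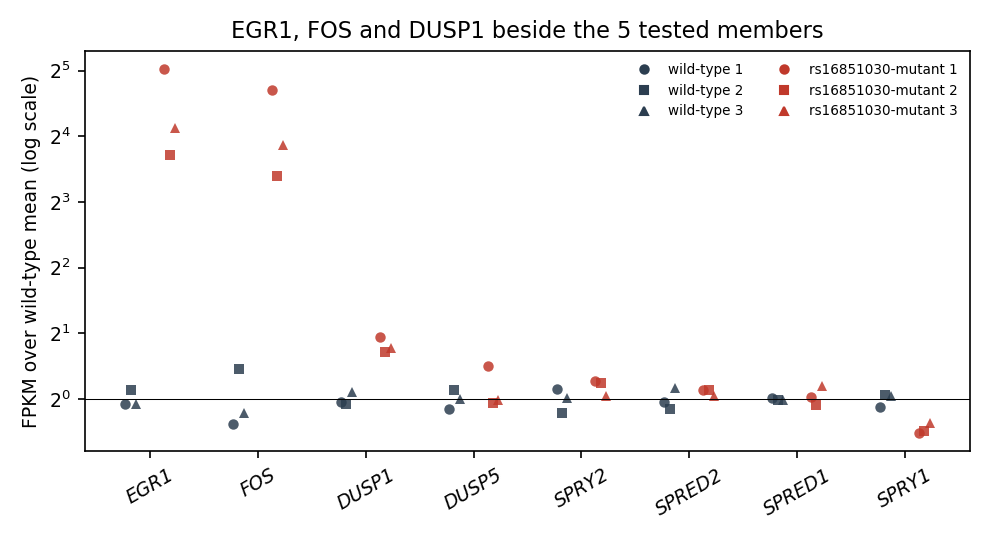
FPKM of each library divided by the wild-type mean, on a log axis with base 2, for EGR1, FOS and DUSP1 and the 5 tested members; shapes give the replicate. EGR1 and FOS lie at 10.5 to 32.5 in the mutant libraries, DUSP1 at 1.64 to 1.93, and the 4 members that did not pass at 0.94 to 1.42, while SPRY1 lies at 0.7 to 0.779.

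Among factors known to act on the control regions of feedback genes, few passed the test. Of 12 tested members of the list, 1 was higher, 2 lower and 9 did not pass. The share that passed was 25%, against 58.0% of all tested genes. CIC, the capicua repressor, which is known to hold ETV and DUSP genes down until ERK inactivates it, had 4.97, 4.81 and 4.71 FPKM in the mutant and 6.05, 6.68 and 6.35 in the wild type. CIC fell by 0.43 (SE 0.06, adjusted p = 5.05e-06) with no overlap between the groups. Its partner gene ATXN1 did not pass (-0.22, SE 0.10, adjusted p = 0.0696), but passed in 4 of 17 other settings (lowest adjusted p 0.0191). ELK3, a ternary complex factor that binds beside serum response factor, rose to 7.70 ± 0.489 FPKM in the mutant from 4.01 ± 0.426 in the wild type (SD, n = 3, a log2 difference of 0.91 with SE 0.09), and the ETS repressor gene ETV3 fell by 0.25. ELK1 (-0.11), SRF (-0.06) and GABPA (-0.01) did not pass, although ELK1 did in 2 of 18 other settings. With every gene with a count in the fit, 2 of the 14 listed genes were higher and 3 lower, while 8966 of 32852 genes passed.

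Upstream of ERK, the receptor and ligand lists moved mainly upward. Of 12 tested receptor tyrosine kinase genes, 8 were higher, 2 lower and 2 did not pass. The shares were 83.3% passed and 66.7% higher, against 58.0% and 29.4% of all tested genes. RET, below 1 FPKM in the wild type, reached the minimum through its mutant values. A gene that is high in 1 group can enter the list in this way, so the 8 of 12 is not a count over all receptors. The list's median was 0.41, and 0.173 to 0.664 over the other settings. RET rose to 1.95 ± 0.124 FPKM in the mutant from 0.710 ± 0.0755 in the wild type (SD, n = 3, a log2 difference of 1.43 with SE 0.12, adjusted p = 1.38e-08) although the other genes of its chromosome, 10, had a median of -0.36. The insulin receptor gene INSR rose by 0.90, EGFR by 0.85, FGFR4 by 0.55 and ERBB2 by 0.53. FGFR2, named after its values were seen, fell by 0.39 and FGFR3 by 0.28. FGFR2 did not pass with limma at a pseudocount of 0.1 (adjusted p = 0.0558), and MET did not pass (0.12, adjusted p = 0.111), although it passed in 4 of 18 other settings (lowest adjusted p 0.0129). Of the 8 receptor genes below the minimum, 5 were higher and 3 did not pass in the fit over all genes. In that fit 9.64% of all genes below the minimum passed. Many of those genes had few counts, so that share is not a like background for these receptors. With edgeR's own filter on counts, which kept 16229 of the 32852 genes with a count, 8911 passed.

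Of 28 ligand genes, 5 were tested, of which 4 were higher and 1 did not pass. The share higher was 80%, against 29.4% of all tested genes. The median of the tested ligands was 0.50 and ran from 0.317 to 1.072 over the other settings. PDGFD, a platelet-derived growth factor, rose to 3.11 ± 0.0379 FPKM in the mutant from 1.14 ± 0.0945 in the wild type (SD, n = 3, a log2 difference of 1.41 with SE 0.12), FGF2 by 0.85, HBEGF of the EGF family by 0.50 and the KIT ligand gene KITLG by 0.35, while PDGFC stood at -0.05. HBEGF did not pass with quantile scaling (0.205, adjusted p = 0.059). Of the 23 ligand genes below the minimum, 10 were higher, 1 was lower and 12 did not pass. Among all genes below the minimum, many of them with few counts, 9.64% passed, so that share is not a like background for ligands with more counts. A gene that is near absent in 1 group enters or leaves these counts with the minimum, so the 4 of 5 is not a count over all ligands.

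For the relay itself and for its other inhibitors, the share of genes that passed was near the 58.0% of all tested genes, so the counts say nothing particular about these lists. Of 25 cascade genes, all tested, 6 were higher, 9 lower and 10 did not pass (60% passed), with a median of 0.06, which was -0.001 with quantile scaling and -0.015 with a minimum of 5 FPKM. The adaptor gene GAB2 rose to 2.13 ± 0.157 FPKM in the mutant from 0.887 ± 0.196 in the wild type (SD, n = 3, a log2 difference of 1.23 with SE 0.14), and the phosphatase gene PTPN11, which promotes RAS activation, by 0.31. GAB2 reached the minimum of 1 FPKM through its mutant values. HRAS fell by 0.56, the scaffold gene SHOC2 by 0.45 and NRAS by 0.27. MAPK3, which encodes an ERK kinase, rose by 0.48 (SE 0.06). The other genes of chromosome 16, where MAPK3 lies, had a median of 0.29. SHOC2 lies on chromosome 10.

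Of 16 other inhibitors, all tested, 6 were higher, 3 lower and 7 did not pass (56.2% passed, median 0.11, and -0.02 with a minimum of 5 FPKM). IL17RD, which encodes the FGF receptor inhibitor Sef and is itself an FGF-induced feedback gene, measured 2.09, 1.73 and 2.24 FPKM in the mutant and 1.13, 1.04 and 0.85 in the wild type. It rose by 0.97 (SE 0.12, adjusted p = 2.71e-06), with no overlap. The RAS GTPase-activating genes RASA3 and RASA1 rose by 0.52 and 0.50 and the ubiquitin ligase gene CBL by 0.31. PEBP1, the RAF kinase inhibitor gene, fell by 0.30, and ERRFI1, the EGF receptor inhibitor gene, by 0.27. The receptor inhibitor gene LRIG2, named after its values were seen, fell by 0.23 (adjusted p = 0.0275), a call lost in 8 of 17 other settings. LRIG3 did not pass (-0.07).

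**Figure D5:**
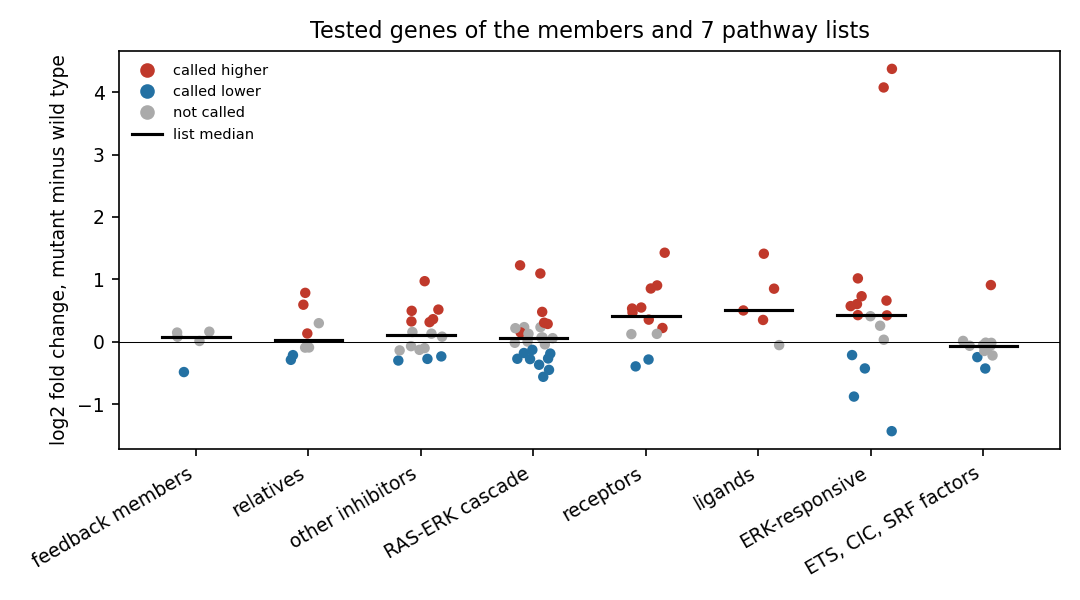
Log2 fold change (mutant minus wild type) of the tested genes of the members and of 7 lists of the pathway; each point is a gene, coloured by its call in edgeR, and the bars are list medians. Among the 5 tested members SPRY1 is the one called point, and EGR1 and FOS lie above 4 in the ERK-responsive list.

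Among the closest relatives of the members, the share that passed was 62.5%, near the 58.0% of all tested genes. Of 12 listed, 8 were tested, all of them DUSP genes, and 3 were higher, 2 lower and 3 did not pass, with a median of 0.02 that was -0.01 with quantile scaling. Beside DUSP1, DUSP9 and DUSP7, DUSP10, which prefers stress kinases, rose by 0.59 (SE 0.20, adjusted p = 0.0149) and DUSP3 by 0.13 (SE 0.05, adjusted p = 0.0204). The DUSP10 call was lost in 4 and the DUSP3 call in 4 of the other settings. DUSP16 (-0.09) and DUSP14 (-0.09) did not pass. The count of 5 called relatives was 2 without mutant replicate 1 and 3 without mutant replicate 3 or wild-type replicate 2.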

How the data were processed

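Poly(A) RNA of 3 mutant and 3 wild-type HEK293 libraries was sequenced in pairs of reads. Per the submitters' processing notes, cutadapt, HISAT2 2.0.1 and HTSeq were used with GRCh38. Annotation release and strand setting are unknown here. For each gene and library the authors deposited a raw count and an FPKM. The FPKM equal the counts per exonic length and total count within 0.005. Counts were tested with edgeR 4.0.16 (TMM scaling, quasi-likelihood F-test, Benjamini-Hochberg adjustment over all genes tested, R 4.3.3) where the mean FPKM was at least 1, at an adjusted p of 0.05. Members below that were read from the same model over 32852 genes with a count. The SE is the log2 fold change over the square root of F. DESeq2 1.42.0, limma 3.58.1 on log2(FPKM + 1) or log2(FPKM + 0.1), other scalings and minimums, a replicate block and leaving out each library were alternatives. The procedure was tested on simulated data in which few genes changed, evenly in both directions. That setting does not cover data in which 58.0% of tested genes passed.

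Members and lists were chosen with earlier results of these data known. The text names the members, up to 5 genes per list with the smallest adjusted p, the 2 most abundant others, and SPRY3, SPRED3, DUSP9 and ETV1, plus 5 genes chosen after their values were seen (ARC, EPHA4, IER3, FGFR2 and LRIG2). The text gives values for these genes except 1, which is not reported here. Count ratios and the ETS core were added after values were seen. Replicate numbers did not pair the samples.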

Additional observations from a re-analysis of the deposited data

How the results depend on the processing

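SPRY1 stayed lower and past the threshold in the 17 alternatives that tested it, and it was the 1 called among the tested members in each. Of the members below 1 FPKM, DUSP4 passed in the fit without wild-type replicate 1. A minimum of 5 FPKM left no member to test, so it gave no member value. Of 1369 comparisons over 78 results, 1236 kept their direction and their side of the threshold or stayed close to the reported value, and 133 did not. The replicate numbers of the libraries did not pair them: deviations of same-numbered libraries correlated at 0.018, -0.059 and -0.048. With the replicate block 7069 genes and 1 member were called, and the SPRY1 log2 fold change was -0.482. The number of genes called was 7284, fell to 4597 with a minimum of 5 FPKM and reached 8966 with no minimum.

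Of the members that did not pass, SPRY2, SPRED2, DUSP6 and DUSP4 kept their sign in each alternative that gave a value. The signs of DUSP5, SPRED1, ETV4, ETV5 and SPRY4, and of LRIG3 and GABPA among the other named genes, changed with the setting, and the cause was not tested. On the log2 scale DUSP5 was -0.045 with quantile scaling and -0.069 to 0.248 with 1 library left out. SPRED1 was -0.105 with quantile scaling, -0.024 with no minimum, -0.022 with edgeR's own filter (filterByExpr) and -0.061 to 0.072 with 1 library left out. The ETV4 log2 fold change was -0.013 with upper quartile scaling, -0.01 with quantile scaling and -0.35 to 0.585 with 1 library left out. ETV5 ran from -0.078 to 0.877, DUSP4 from 0.295 to 0.553 and LRIG3 from -0.148 to 0.015 with 1 library left out. The fitted value of SPRY4, which at 4 counts a genotype is not read as a fold, was 0.021 with library totals and -1.332 to 0.571 with 1 library left out. GABPA was 0.028 with upper quartile scaling, 0.023 with library totals, 0.02 and 0.021 with limma at pseudocounts of 1 and 0.1, 0.037 with quantile scaling, 0.034 with a minimum of 5 FPKM and -0.077 to 0.026 with 1 library left out.

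Fewer or more genes tested changed the list counts. With a minimum of 5 FPKM, 3 relatives, 4 inhibitors, 4 receptors, 1 ligand and 6 ERK-responsive genes were called. Called ligands numbered 15 with no minimum and 12 with filterByExpr, and called factors 5 and 6. Called relatives ranged from 2 to 5 with 1 library left out. Depth limits SPRY4, ETV4, DUSP6 and ETV5, with at most 45 counts in a genotype.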
